A study of Mus musculus with 4 samples.

Results

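Oxidative phosphorylation is carried out in the inner mitochondrial membrane by 4 respiratory complexes and an ATP synthase, and most of their subunits are encoded in the nucleus. The genes described here were chosen by symbol as those starting with Nduf, Uqcr or Atp5, those starting with Cox followed by a digit from 4 to 8, and Sdha, Sdhb, Sdhc and Sdhd. Of 32285 genes, 94 matched, and 91 of these had at least 200 counts in a library. That minimum was reached by 12711 genes in all. The 3 genes below it were Cox6a2, Cox8b and Cox8c, whose highest counts in a library were 95, 2 and 114. By symbol, the 91 genes divided into 39 of complex I (NADH dehydrogenase), 8 assembly factors of complex I (Ndufaf genes), 4 of complex II (succinate dehydrogenase), 8 of complex III (cytochrome bc1), 15 of complex IV (cytochrome c oxidase) and 17 of the ATP synthase.

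Complexes I, III and IV pump protons across the membrane, complex II feeds electrons from the citric acid cycle, and the ATP synthase uses the proton gradient to make ATP. The catalytic cores of complexes I, III and IV also contain subunits made from mitochondrial DNA, so both genomes contribute to them. Mouse embryonic stem cells (mESC) in the naive state use respiration and glycolysis together, and the passage towards the primed state is known for a greater reliance on glycolysis. Several cytochrome c oxidase subunits exist as paralogs, of which Cox6b1 is used in most tissues and Cox6b2 is known from testis.

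The cells were E14tg2a.4, a male mESC line, and Srrm2 hKO, a line derived from it that carries a truncating gene trap in 1 of its Srrm2 alleles (Srrm2+/-) and represents a single gene-trap line. Before collection both were kept in serum-free medium with LIF, the cytokine that keeps mESC undifferentiated. The labels name 24 h and 72 h of growth without assigning them to samples, and the methods of the study name a single further length. The labels list 2 WT and 2 Srrm2 hKO samples, whereas the cells in the matrix carry only a library number from 1 to 4 that no label or file ties to a sample. The question of how a reduced Srrm2 dose affects these genes was therefore not addressed, and the 4 libraries are given by number, each as a single library without replicate error. Srrm2 itself stood at 387, 533, 238 and 356 CPM (counts per 1000000 UMIs of the kept cells) in libraries 1 to 4, and this was not used to assign libraries.

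Cox6b2 and Cox6b1 lie on the minus strand of chromosome 7 in the GRCm38 build, at chr7:4751792-4753094 and chr7:30616861-30626151. Their coding sequences are shown because the comparison of these paralogs depends on whether a 3′ read can be assigned to 1 of them. Capitals mark bases that differ, or have no partner, in a global alignment of both.
Cox6b2: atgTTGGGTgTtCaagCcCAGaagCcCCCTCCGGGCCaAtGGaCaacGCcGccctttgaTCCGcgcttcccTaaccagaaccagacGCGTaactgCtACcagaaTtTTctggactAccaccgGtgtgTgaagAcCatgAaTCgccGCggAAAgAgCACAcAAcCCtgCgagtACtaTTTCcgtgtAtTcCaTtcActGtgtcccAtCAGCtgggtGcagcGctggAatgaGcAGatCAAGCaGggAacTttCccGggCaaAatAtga
Cox6b1: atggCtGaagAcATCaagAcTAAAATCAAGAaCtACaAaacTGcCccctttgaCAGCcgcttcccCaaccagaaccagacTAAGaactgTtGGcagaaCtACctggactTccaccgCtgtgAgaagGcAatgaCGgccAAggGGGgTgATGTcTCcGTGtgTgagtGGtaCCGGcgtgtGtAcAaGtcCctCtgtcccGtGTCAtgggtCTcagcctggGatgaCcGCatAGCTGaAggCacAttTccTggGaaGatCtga
With the stop codon they measured 267 and 261 bases, and 162 of 269 aligned columns (60.2%) were identical. The longest run shared by the full transcripts was 14 bases. No word of 31 bases in the last 300 bases of either transcript was found in a transcript of another gene. The paralogs were thus distinguishable by sequence.

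The windows of 250 bases before to 50 bases after the transcription start (RefSeq, GRCm38.p6, minus strand) are given for the same pair, at chr7:4753045-4753344 for Cox6b2 and chr7:30626065-30626364 for Cox6b1. Capitals mark matches on either strand to 3 motifs known from genes of this pathway, GCATGCGC (bound by NRF1), CCGGAAG (ETS factors) and AAGATGGC (YY1), none of which contains another.
Cox6b2 promoter: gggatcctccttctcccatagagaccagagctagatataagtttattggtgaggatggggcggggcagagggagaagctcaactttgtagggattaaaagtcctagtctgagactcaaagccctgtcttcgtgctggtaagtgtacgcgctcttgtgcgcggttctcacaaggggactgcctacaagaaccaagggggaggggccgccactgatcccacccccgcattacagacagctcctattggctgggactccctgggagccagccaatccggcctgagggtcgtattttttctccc
Cox6b1 promoter: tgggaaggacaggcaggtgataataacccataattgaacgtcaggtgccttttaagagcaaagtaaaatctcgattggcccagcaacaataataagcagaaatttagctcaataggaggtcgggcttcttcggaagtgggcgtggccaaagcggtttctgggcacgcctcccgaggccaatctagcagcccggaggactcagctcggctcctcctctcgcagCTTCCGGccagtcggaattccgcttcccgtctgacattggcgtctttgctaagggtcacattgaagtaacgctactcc
The Cox6b1 window held 1 match, to the ETS motif on the opposite strand, and the Cox6b2 window held none. Windows were found for 74 of the 91 members. The NRF1 motif was present in 12 of these (16.2%), the ETS motif in 19 (25.7%) and the YY1 motif in 10 (13.5%). Among 27025 genes with windows of the same length, the shares were 3.05%, 9.93% and 3.19%. These genes were taken without the count minimum that the members had to meet, so the shares are not like for like. At least 1 of the motifs was present in 34 of 74 members and in 14.9% of all genes. A match is a description of the letters and says nothing about binding.

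The cell filter kept 31989 of 41142 barcodes, between 7464 and 8514 per library, with 166839268 to 200180473 UMIs per library. Counting error was therefore small. For the 89 members with at least 1000 counts in every library, both 95% Poisson limits of every level lay within 5.98% of its value. Among kept cells, 105 barcode sequences occurred in more than 1 library, of 31883 distinct sequences. Summed levels of marker lists differed between libraries. The naive pluripotency panel stood at 1930, 1575, 1402 and 931 CPM in libraries 1 to 4, and the formative panel at 215, 761, 398 and 1165 CPM. A list of keratins and contractile genes stood at 66.9, 49.0, 907 and 283 CPM. Lists for other cells summed to 1.498 to 4.21 CPM for the primitive streak, 24.6 to 48.6 CPM for trophectoderm, 0.684 to 1.68 CPM for primitive endoderm, 0.535 to 9.11 CPM for fibroblasts and 0.172 to 0.916 CPM for two-cell-like cells. The part of cell state in the differences described next was not tested, and in summed counts a change in the share of cells of a state and a change of RNA per cell cannot be told apart. A UMI marks 1 molecule at its 3′ end, so levels were not divided by transcript length.

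Summed over all members, the level was nearly the same in every library, while the summed mitochondrially encoded subunits of the same complexes differed. The 91 members together stood at 27445, 27607, 27853 and 28116 CPM in libraries 1 to 4. The highest library was 1.02-fold above the lowest (95% counting interval 1.02 to 1.03). The 13 mitochondrially encoded protein genes stood at 52970, 40861, 43821 and 34653 CPM, a 1.53-fold range. Library 4 thus had the highest nuclear sum and the lowest mitochondrial sum, although the order for the nuclear sum depended on the scaling. Both sums are shares of the same UMIs, so a smaller mitochondrial share by itself raises the nuclear CPM. Over UMIs without ribosomal and mitochondrially encoded genes, the nuclear sum was highest in library 1 and lowest in library 2, 1.06-fold apart. With median-of-ratios size factors, which shift library 4 against library 1 by -0.13 on the log2 scale, the nuclear sum was highest in library 1 and lowest in library 2, 1.08-fold apart.

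The complexes divided the flat total unequally. Complex I stood at 8578, 7652, 8499 and 7713 CPM and complex II at 528, 418, 498 and 391 CPM, both higher in libraries 1 and 3 than in libraries 2 and 4. Complex III was lower in libraries 1 and 3, with 2208, 2714, 2382 and 2906 CPM. Complex IV stood at 7226, 7642, 7306 and 7987 CPM, lowest in library 1 and highest in library 4. That order rests on Cox7c, at 937, 1377, 1121 and 1890 CPM, which shares 99.3% of its 3′ words with other genes. Between libraries 1 and 4, Cox7c gained more CPM than the whole complex IV sum did. The remaining complex IV genes together were thus lower in library 4 than in library 1. The ATP synthase genes stayed within a 1.03-fold range, at 8589, 8855, 8843 and 8779 CPM. That range is uncertain, since Atp5g2, Atp5l and Atp5h share 98.5%, 72.2% and 54.8% of their 3′ words with other genes. The Ndufaf genes stood at 318, 328, 325 and 340 CPM. The ranges were 1.35-fold for complex II, 1.32-fold for complex III, 1.12-fold for complex I, 1.11-fold for complex IV and 1.07-fold for the Ndufaf genes. With size factors, complexes I, II and III had the same highest and lowest libraries, whereas the other groups did not. Complex IV was then lowest in library 3 rather than 1, and the ATP synthase and Ndufaf genes were highest in library 1. The ranges were then 1.48-fold for complex II, 1.20-fold for complex III, 1.22-fold for complex I and 1.05-fold for complex IV. For the ATP synthase and the Ndufaf genes they were 1.07-fold and 1.06-fold.

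**Figure D1:**
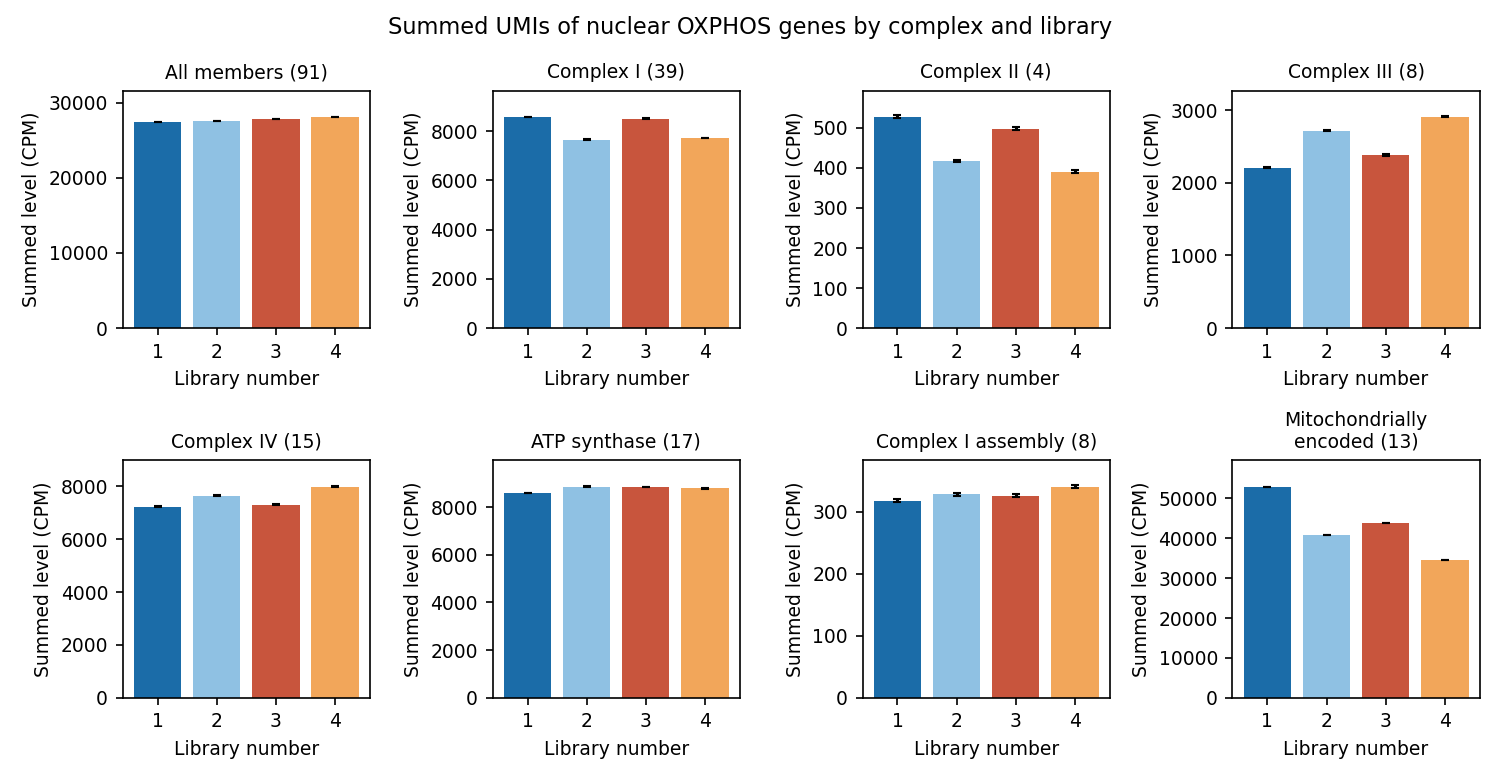
Summed level (CPM) of the members by complex in libraries 1 to 4, with the 13 mitochondrially encoded protein genes in the last panel. Bars are the levels of single libraries and error bars are 95% Poisson counting intervals. The sum of all 91 members is almost level, at 27445 to 28116 CPM, while the mitochondrially encoded sum runs from 34653 to 52970 CPM.

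Behind the level total, members differed in opposite directions. At least 1.5-fold between the highest and the lowest library were 35 of 91 members (38.5%), against a background of 47.6% of all 12711 genes with the same count minimum, so the members were not more often apart than genes in general. Without library 1 the count was 23 and without library 4 it was 17, beside 35.1% and 38.2% of all genes. The median fold of the members was 1.43 and that of all genes was 1.47. This count minimum can be met in a single library, so the background includes genes that reach it only where they are high. With at least 200 counts in every library, 34 of 90 members were at least 1.5-fold apart, beside 41.0% of 11099 genes. The members and genes in general were then closer. Of the members, libraries 1 and 4 each held the highest level of 31 (34.1%), library 2 that of 11 (12.1%) and library 3 that of 18 (19.8%). Over all genes, the shares highest in libraries 1 to 4 were 21.7%, 24.5%, 20.7% and 33.1%. The share of members highest in library 4 was thus close to that of all genes. The lowest level was in library 1 for 34 members and in library 4 for 41, with 9 and 7 for libraries 2 and 3. By both ends, 28 members were lowest in library 1 and highest in library 4, and 27 were the reverse. The share of all genes with these orders was not counted, so whether they are more frequent among the members is not known. Over all genes, library 1 was lowest for 43.8% and library 4 for 23.6%, beside 37.4% and 45.1% of the members.

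**Figure D2:**
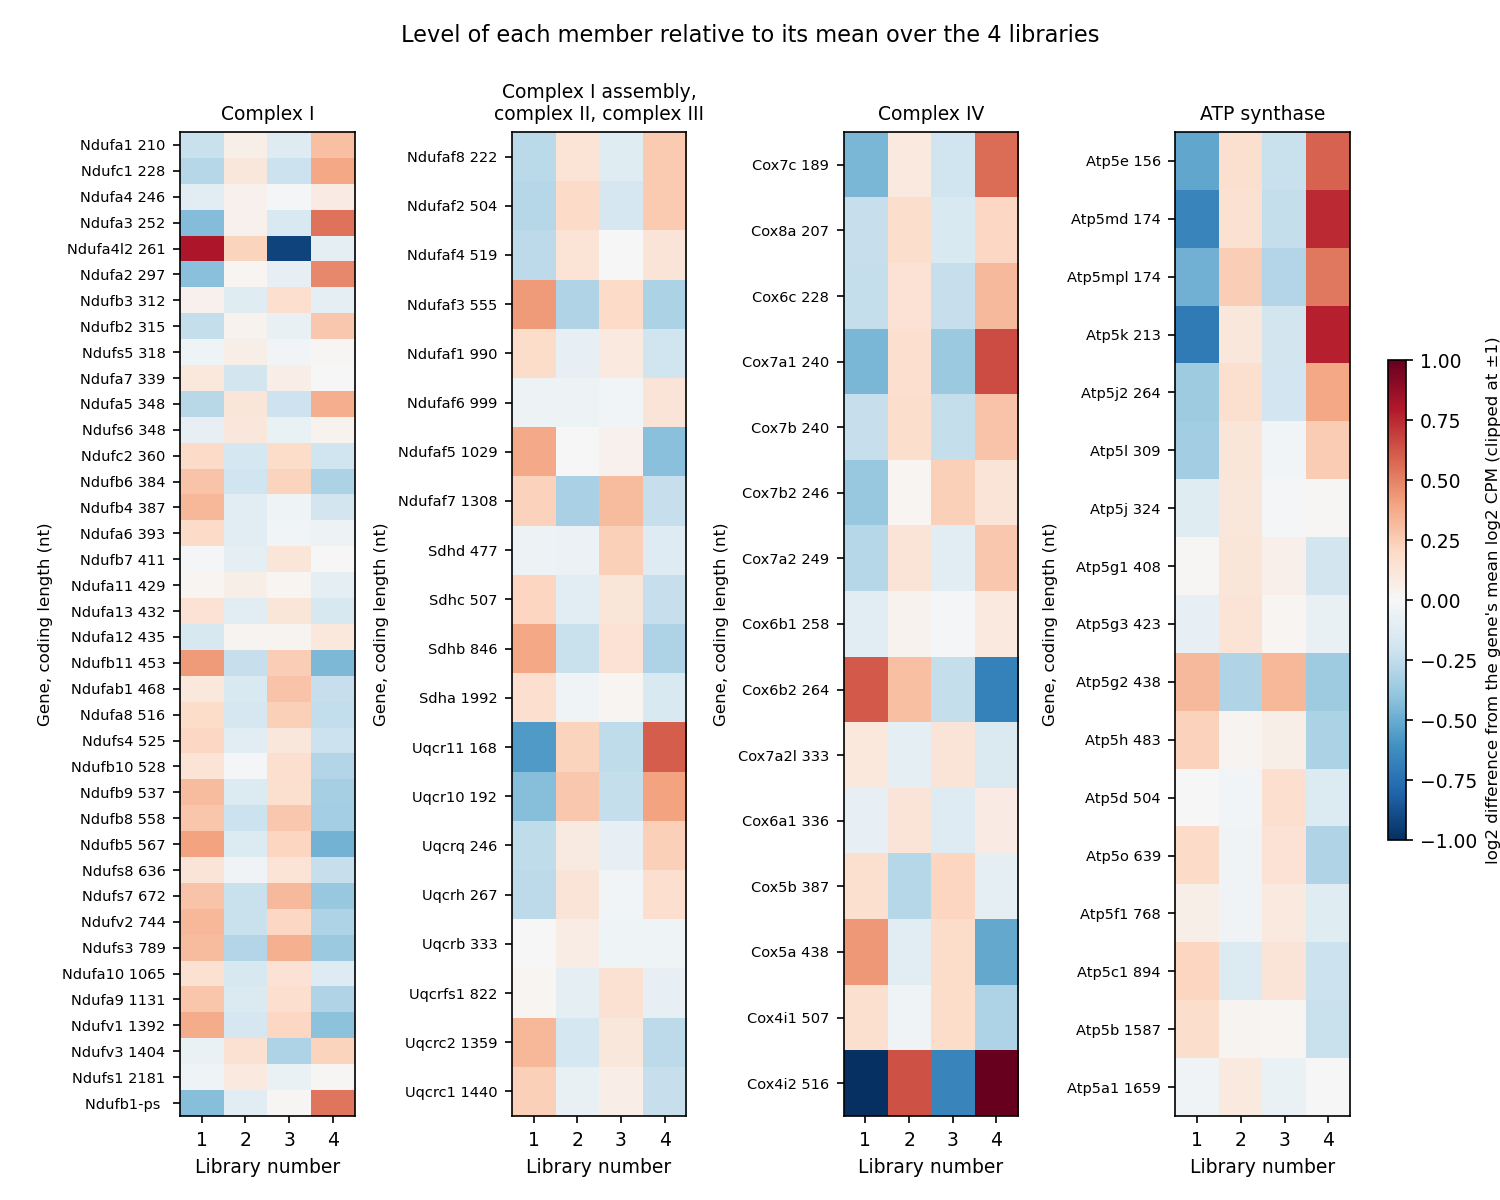
Level of each of 90 of the 91 members in libraries 1 to 4 as the log2 difference from the gene's mean log2 CPM, with genes sorted by coding length (nt, without the stop codon) within each group. Red is above and blue below the gene's own mean, clipped at 1. Most of the shortest genes run from blue in library 1 to red in library 4, Cox6b2 and Ndufa4l2 run against their neighbours, and most longer genes are red in libraries 1 and 3.

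In complex I, most of the catalytic core subunits described here were lowest in library 4. Among the core subunits, which carry electrons from NADH to ubiquinone, are Ndufs1, Ndufs3, Ndufs7, Ndufs8, Ndufv1 and Ndufv2. Of these 6, all but Ndufs1 were lowest in library 4, and 4 were at least 1.5-fold apart. Over all genes, 23.6% were lowest in library 4 and 47.6% were at least 1.5-fold apart. All 6 have over 600 nt of coding sequence, and 17 of the 24 members of that length were lowest in library 4. The 4 include Ndufs3, whose level is uncertain because 66.3% of its 3′ words are shared. Ndufv1, the subunit that binds NADH, stood at 159, 109, 142 and 92.6 CPM in libraries 1 to 4 (1.72-fold, interval 1.69 to 1.76). Ndufs7 stood at 242, 170, 249 and 153 CPM (1.63-fold). Ndufs1 was among the 5 members with the smallest folds, at 65.5, 72.2, 64.4 and 67.8 CPM (1.12-fold). These subunits were thus mostly lower in libraries 2 and 4, and its largest subunit was nearly level.

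Over all genes of complex I, 5 of 6 of up to 300 nt of coding sequence and 2 of 10 over 600 nt were higher in library 4 than in library 1. Ndufv3, an accessory subunit of 1404 nt, Ndufs1, of 2181 nt and nearly level, and Ndufa4l2, of 261 nt, went against their classes. Among the accessory subunits, which surround the core, Ndufb5 and Ndufb11 had their maximum in library 1 and their minimum in library 4, at 410, 281, 359 and 223 CPM and at 240.3, 153, 213 and 131 CPM. Both differed 1.83-fold. The short accessory genes Ndufa2 and Ndufa3 had the reverse order, at 185, 251, 233 and 345 CPM and at 54.0, 75.3, 65.5 and 106 CPM. Ndufb1-ps, which the annotation lists as a non-coding RNA, was lowest in library 1 and highest in library 4, at 111, 139, 151 and 217 CPM. Ndufs5 and Ndufa11 were nearly level, with folds of 1.07 and 1.12. Shared words made up 57.8% of the 3′ end of Ndufs5 and 66.3% of that of the core subunit Ndufs3, so these levels are uncertain too. Among the assembly factors, Ndufaf8 had the highest mean level, at 61.4, 81.4, 68.0 and 88.9 CPM.

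All 4 subunits of complex II, which has no mitochondrially encoded subunit, were lowest in library 4. Sdhb, the iron-sulfur subunit, had the highest mean level and the largest fold, at 213, 140, 180 and 132 CPM (1.62-fold, interval 1.59 to 1.64). The others differed 1.247-fold (Sdha, the flavoprotein), 1.37-fold (Sdhc) and 1.29-fold (Sdhd), the last of these with its highest level in library 3.

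In complex III, all 4 members of up to 300 nt were higher in library 4 than in library 1, and none of the 4 longer members was. Uqcr11 and Uqcr10, small subunits next to the cytochromes, were lowest in library 1 and highest in library 4. Uqcr11 stood at 241, 417, 299 and 542 CPM (2.25-fold, interval 2.22 to 2.28) and Uqcr10 at 325, 528, 370.2 and 577 CPM (1.78-fold). Uqcrq, the member of this complex with the highest mean level, followed them with 392, 497, 441 and 552 CPM. Uqcrc2, a large core protein on the matrix side, had the reverse order, at 179, 126, 153 and 118 CPM (1.51-fold). Uqcrb was nearly level, at 313, 328, 302 and 303 CPM. Uqcrfs1, the Rieske iron-sulfur protein, differed 1.18-fold.

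In complex IV, the nuclear subunits Cox4i1 and Cox5a, which are incorporated together at an early step of assembly, were lowest in library 4. Cox5a stood at 1267, 871, 1066 and 659 CPM (1.92-fold, interval 1.91 to 1.93) and Cox4i1 at 1294, 1131, 1318 and 935 CPM (1.41-fold). Cox7c, a small membrane subunit with the highest mean level of all members, had the reverse order of Cox5a, at 937, 1377, 1121 and 1890 CPM (2.02-fold, interval 2.00 to 2.03). Its level is uncertain, since 99.3% of the 31-base words in its last 300 bases also occur in other genes. Cox6c, Cox7a2, Cox7b and Cox8a, all small, were also highest in library 4, with folds of 1.35 to 1.48. Cox6b1 differed little between libraries, and Cox6b2 was highest in library 1 and lowest in library 4, as described further on.

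In the ATP synthase, the alpha subunit of the catalytic head was nearly level, the beta and gamma subunits were lowest in library 4, and the 5 genes of up to 300 nt were lowest in library 1 and highest in library 4. Atp5a1 and Atp5b, the alpha and beta subunits of the head, stood at 668, 731, 652 and 684 CPM (1.12-fold) and at 1096, 988, 985 and 830.1 CPM (1.32-fold). Atp5c1, the gamma subunit, differed 1.35-fold. Atp5k and Atp5md, small subunits of the membrane part, were lowest in library 1 and highest in library 4. Atp5k stood at 135, 238, 194 and 378 CPM (2.79-fold, interval 2.75 to 2.84) and Atp5md at 158, 277, 211 and 418 CPM (2.64-fold, interval 2.60 to 2.68). The same order held for Atp5e, the epsilon subunit, at 338, 542, 415 and 731 CPM (2.16-fold), and for Atp5mpl, at 134, 221, 152 and 269 CPM (2.00-fold).

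The ring of the ATP synthase turns with proton flow, and its subunit c is encoded by Atp5g1, Atp5g2 and Atp5g3, whose mature proteins are the same. Atp5g2 stood at 1187, 773, 1196 and 741 CPM (1.61-fold), higher in libraries 1 and 3 than in libraries 2 and 4. Atp5g1 stood at 869, 938, 897 and 762 CPM (1.23-fold) and Atp5g3 at 252, 292, 270 and 254 CPM (1.16-fold). The ratio of Atp5g1 to Atp5g3 was steady within 1.15-fold, whereas Atp5g1 made up 42.3%, 54.8%, 42.9% and 50.7% of the UMIs of Atp5g1 and Atp5g2 together. Of the words of 31 bases in the last 300 bases of Atp5g2, 98.5% also occur in transcripts of other genes, so its level is uncertain.

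The direction of the library differences went with the length of the coding sequence, which ran from 156 to 2181 nt (without the stop codon) over the 90 members that have one. Of the 25 members of up to 300 nt, 22 were lowest in library 1 and 22 were highest in library 4. Their sum was 7356, 10037, 8171 and 11829 CPM in libraries 1 to 4 (1.61-fold). Of the 24 members over 600 nt, none was lowest in library 1, and 17 were lowest in library 4. Their sum was 5849, 5066, 5523 and 4625 CPM (1.26-fold). The 41 members over 300 and up to 600 nt included 11 lowest in library 1 and 23 lowest in library 4. They summed to 14127, 12366, 14008 and 11445 CPM. The median log2 difference of library 4 over library 1 was 0.56, -0.24 and -0.44 in the 3 classes from short to long, and 0.43, -0.37 and -0.58 with size factors. Of 241 other protein-coding genes of up to 300 nt (not ribosomal or mitochondrially encoded), 151 were lowest in library 1 and 109 highest in library 4. Of 10268 such genes over 600 nt, 4532 were lowest in library 1 and 2312 in library 4.

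**Figure D3:**
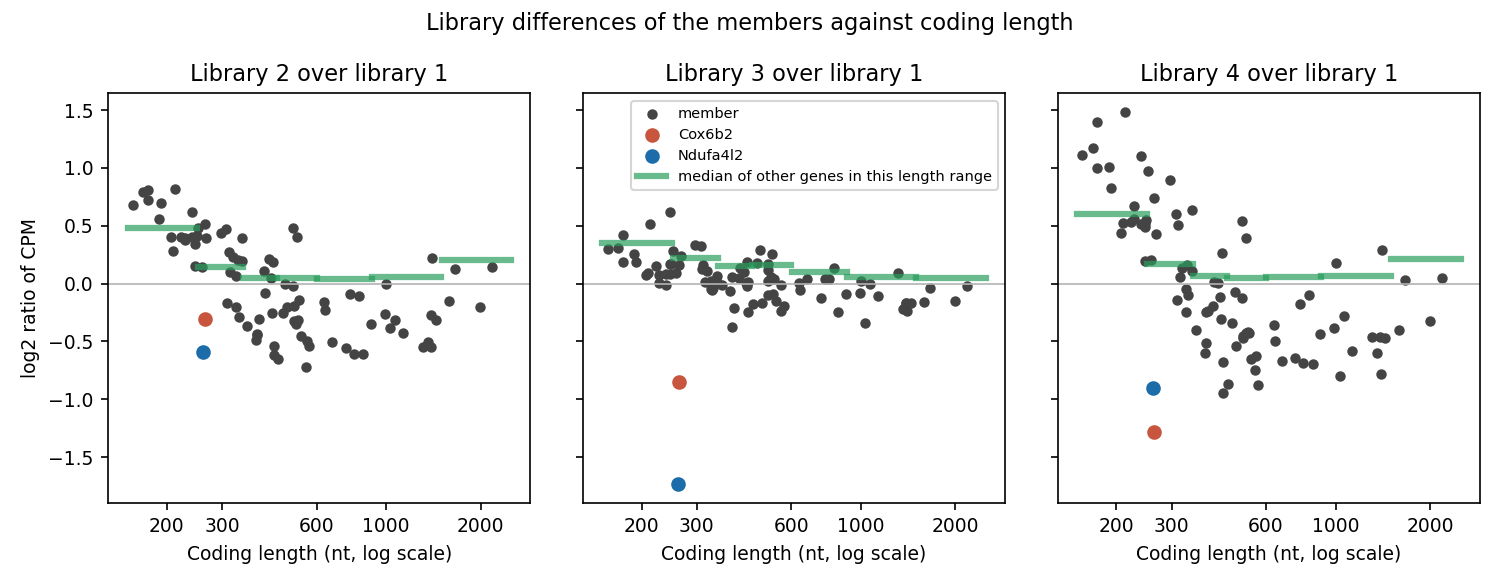
Log2 ratio of CPM in libraries 2, 3 and 4 over library 1 (vertical axis) against coding length in nt on a log scale (horizontal axis) for the members, with Cox6b2 in red and Ndufa4l2 in blue. Green lines are medians of other protein-coding genes in 7 length ranges, and neither Cox4i2, with 41 counts in library 1, nor Ndufb1-ps, with no coding length, is drawn. For libraries 2 and 4, members up to 300 nt lie above 0 except Cox6b2 and Ndufa4l2, and most members over 600 nt lie below 0.

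Between pairs of libraries, Spearman's rho of the log2 ratio with coding length over the 90 members was -0.63 for library 2 over 1, -0.55 for 3 over 1 and -0.64 for 4 over 1. It was 0.57 for 3 over 2, -0.59 for 4 over 2 and -0.64 for 4 over 3. The members share their libraries and depths, and the 6 pairs share libraries, so these values are a description. With transcript length in place of coding length, rho was smaller in size in every pair (-0.37 for library 4 over 1).

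Between libraries 1 and 4, most other short genes moved in the same direction. For library 4 over library 3 the likeness was weaker, with 57.3% of other genes of up to 300 nt higher, against 92.0% of the members. The 241 other protein-coding genes of up to 300 nt summed to 25618, 32030, 31254 and 35438 CPM, and 72.6% of them were higher in library 4 than in library 1, compared with 92.0% of the members of this class. The 12 short cytosolic ribosomal protein genes summed to 21421, 29792, 22990 and 42723 CPM (1.99-fold), and the 25 ribosomal genes over 600 nt to 90954, 72264, 88105 and 69687 CPM. Over 600 nt, 62.0% of other protein-coding genes were higher in library 4 than in library 1, against 16.7% of the members. Over all 11827 other protein-coding genes, rho with coding length was 0.10 for library 4 over 1, and over the 1559 of up to 600 nt it was -0.13.

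Among the 13 mitochondrially encoded genes, the largest folds belonged to mt-Atp8, mt-Nd6, mt-Nd4l and mt-Co3. mt-Co3 was highest in library 1, at 12887, 7611, 9588 and 6576 CPM. mt-Atp8 stood at 29.3, 71.2, 36.9 and 90.4 CPM (3.09-fold), mt-Nd4l at 107, 204, 161 and 268 CPM (2.51-fold) and mt-Nd6 at 19.5, 49.3, 22.0 and 47.9 CPM (2.52-fold). mt-Atp8 and mt-Nd4l overlap longer genes on the same transcripts, so their counts are uncertain. Long genes did not all follow mt-Co3, since mt-Nd5 was lowest in library 1, at 249, 307, 257 and 300.1 CPM, and mt-Nd1 was highest in library 2, at 3760, 4404, 3807 and 3561 CPM. The libraries and the cultures cannot be told apart, and the part of transcript length was not tested beyond the correction that follows. When each level was divided by the median of other protein-coding genes of like coding length, a choice made after seeing the data, 30 of 90 members were at least 1.5-fold apart, beside 45.1% of all genes. Of the 30, 27 were among the 35 found without this correction and 3 (Atp5b, Atp5h and Ndufa9) were not. Atp5k then differed 1.84-fold, Atp5md 1.74-fold, Uqcr11 1.52-fold and Cox7c 1.42-fold.

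Of the pair, Cox6b2 differed more between libraries than Cox6b1. Its level was 150.3, 121, 83.1 and 61.6 CPM in libraries 1 to 4 (95% counting intervals 148 to 152, 119.9 to 123, 81.8 to 84.5 and 60.5 to 62.8). Library 1 was 2.44-fold above library 4 (2.38 to 2.49, counting error only). Cox6b1, of nearly the same coding length, stood at 388, 428, 414 and 448 CPM, a 1.15-fold range with its highest level in library 4. Cox6b2 therefore made up 27.9%, 22.1%, 16.7% and 12.1% of the UMIs of the pair (exact binomial 95% intervals 27.6 to 28.2, 21.8 to 22.3, 16.5 to 16.96 and 11.9 to 12.3). The ratio of Cox6b2 to Cox6b1, in which scaling drops out, differed 2.82-fold. Without library 1 it differed 2.06-fold and without library 4 1.93-fold. Divided by genes of like coding length, Cox6b2 differed 2.75-fold. The naive panel had the same order over the libraries, and its part in the difference was not tested.

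**Figure D4:**
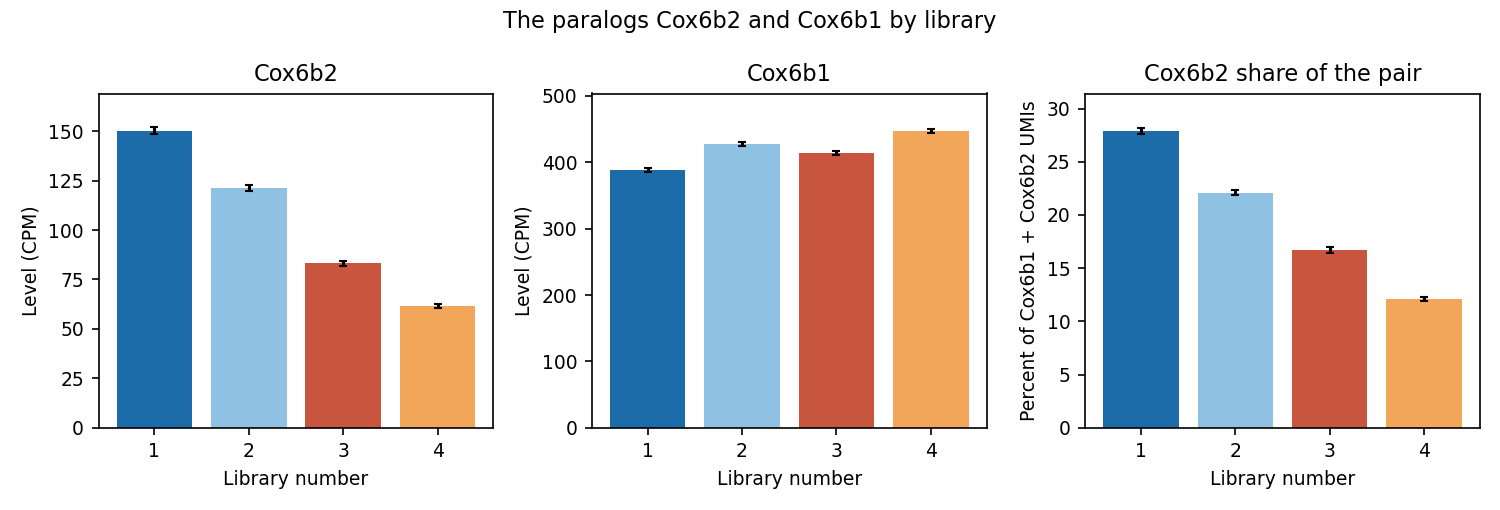
Level (CPM) of Cox6b2 and Cox6b1 and the percent of Cox6b2 among the UMIs of both genes in libraries 1 to 4. Bars are single libraries, and error bars are 95% counting intervals, Poisson for the levels and exact binomial for the share. Cox6b2 lies between 150.3 CPM in library 1 and 61.6 CPM in library 4, while Cox6b1 stays between 388 and 448 CPM.

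Cox6b2 was spread over many cells. With each cell thinned to 10000 UMIs (151 to 274 shallower cells per library left out), a Cox6b2 UMI was found in 74.5% (73.5 to 75.4), 65.4% (64.3 to 66.4), 53.8% (52.7 to 54.9) and 44.1% (43.0 to 45.3) of cells of libraries 1 to 4. Poisson counts with these means would give 78.9%, 70.9%, 57.6% and 46.6%. The shares for Cox6b1 were 97.2% to 98.6%. Without thinning, Cox6b2 was found in 89.7%, 87.9%, 75.6% and 69.4% of cells, at median depths of 18378, 21898, 19405 and 21438 UMIs. No cell type that lacks Cox6b2 was at hand to measure free RNA. In thinned cells, the variance of Cox6b2 was 1.32, 1.38, 1.34 and 1.19 times its mean, against 1.12 to 1.19 times for Cox6b1. Among the 91 members, this ratio was highest for Ndufa4l2 in library 1, at 1.71 with a mean of only 0.221 UMIs per cell, and for Cox4i1 in libraries 2 to 4, at 1.88 to 2.03. Cox4i1 stood at 1.62 in library 1, and Cox7c and Atp5g1 at 1.48 to 1.78 and 1.44 to 1.80. These 3 had far higher means than Cox6b2, so their ratios are not directly comparable with its own.

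The other tissue-type paralogs were rare beside the common form. Ndufa4l2, a gene known to be induced by low oxygen, stood at 22.0, 14.7, 6.62 and 11.8 CPM (3.33-fold, interval 3.11 to 3.56), 3.54%, 2.15%, 1.03% and 1.69% of its UMIs with Ndufa4. Ndufa4, which carries a complex I name and is now known as a subunit of complex IV, had the highest mean level among genes so named and was nearly level, at 600, 666, 636 and 685 CPM (1.14-fold). Cox4i2, another paralog known from low oxygen, had the largest fold of all members on few counts (7.69-fold, interval 5.55 to 10.9). It stood at 0.25, 1.05, 0.43 and 1.89 CPM from 41, 211, 74 and 329 counts, 0.019% to 0.202% of its UMIs with Cox4i1. Cox4i2 reached the minimum of 200 counts only in libraries 2 and 4, where it was higher, so its rank depends in part on that minimum. Cox6a2 was below the minimum in every library and so was not ranked. It differed 9.91-fold, from 95 counts in library 1 to 10 counts in library 4. Ndufa4l2 was thus highest in library 1 and lowest in library 3, whereas Cox4i2 was highest in library 4. Cox7a1, the form of heart and muscle, stood at 10.4, 16.04, 11.04 and 22.4 CPM (2.15-fold), 2.26% to 3.48% of its UMIs with Cox7a2. Cox7b2 stood at 1.20, 1.59, 1.85 and 1.72 CPM, from 201 to 319 counts.

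Between cells of the same library that were high or low in a pluripotency panel, no member differed strongly in every library. Cells were ranked by the UMIs of the panel after thinning to 5000 UMIs and divided into 4 equal parts, and counts were summed over the top part and the bottom part. By the naive panel, the sum of members in the top over the bottom part was 0.952, 1.04, 0.995 and 1.04 in libraries 1 to 4. None of the 89 members with enough counts differed by at least 0.32 on the log2 scale in 1 direction in every library. Among 9978 genes, 3.35% passed that rule as higher and 9.24% as lower. Short members without Cox6b2 stood at 0.897, 1.00, 0.915 and 1.00, and members over 600 nt at 0.991, 1.06, 1.07 and 1.06. Ratios were above 1 in every library for 19 members (21.3%) and below 1 in every library for 35 (39.3%), close to the shares over all genes, where these were 2241 and 3892 of 9978.

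The members with the largest and smallest mean ratios by the naive panel were chosen after their values were seen. Cox5a was 1.09, 1.35, 1.36 and 1.39 times as high in the top part by the naive panel. Cox7a1, which is rare, had ratios of 0.831, 1.29, 1.52 and 1.55. Cox4i1 was 1.01, 1.34, 1.16 and 1.54 times as high, with 1289 against 1274 CPM in library 1 and 1133 against 733 CPM in library 4. Ndufb4 had ratios of 1.04, 1.26, 1.40 and 1.21. At the other end, Ndufaf6, an assembly factor of complex I, had 0.859, 0.830, 0.764 and 0.746, and Ndufa2 had 0.805, 0.885, 0.711 and 0.832. For Cox5a and Cox4i1, library 1 showed the smallest difference between parts.

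Cox6b2 was higher in the top part by the naive panel in every library, by little. Its ratios were 1.02 (counting interval 0.983 to 1.06), 1.10 (1.06 to 1.14), 1.10 (1.05 to 1.15) and 1.16 (1.10 to 1.23). The interval of library 1 includes 1. Cox6b1 had ratios of 0.904, 1.03, 0.870 and 0.992. In the bottom part, where the median panel count was 5, 2, 1 and 0 UMIs, Cox6b2 stood at 148, 112, 79.9 and 57.3 CPM. These parts were set within each library and were not matched for the panel between libraries.

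By the formative panel, Cox6b2 was lower in the top part of every library, at ratios of 0.940, 0.788, 0.809 and 0.805. The sum of members had ratios of 0.994, 0.936, 0.981 and 0.949. No member of the 89 passed the same limit in every library, against 5.34% of 10001 genes as higher and 1.13% as lower. Ratios were above 1 in every library for 23 members (25.8%), beside 4373 of all genes (43.7%), and below 1 in every library for 38 (42.7%), beside 1997 of all genes. Members were thus more often below 1 than genes in general by this panel, a difference that was not tested. Cox4i1 had ratios of 0.951, 0.661, 0.844 and 0.631, and Cox5a of 0.883, 0.717, 0.809 and 0.708. In library 1 the panel was so low that 6164 of 8118 cells were tied at a limit between parts and were placed in random order.

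**Figure D5:**
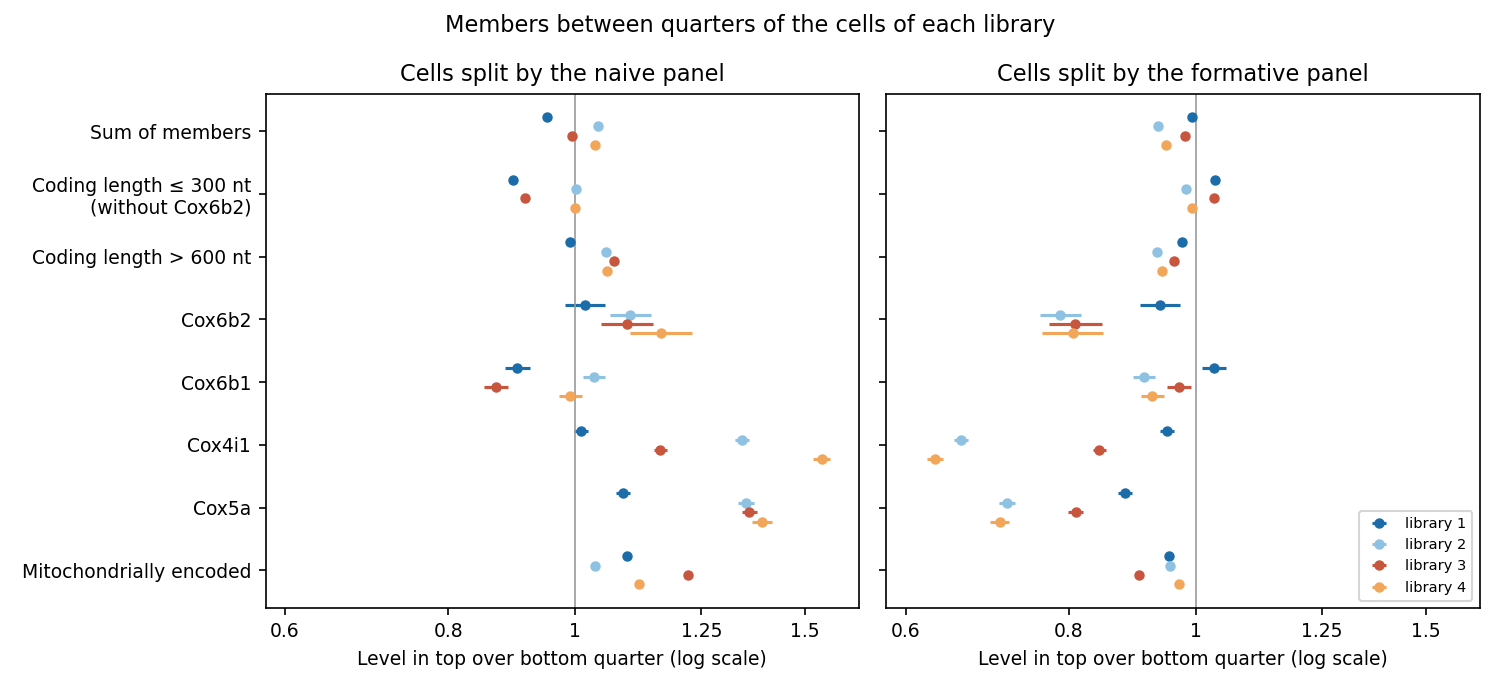
Level in the top over the bottom of 4 equal parts of the cells (log scale), ranked by the naive panel (left) and the formative panel (right), for sums of members and for single genes. Points are libraries and bars are 95% counting intervals. The sum of members lies between 0.936 and 1.04 in both panels, while Cox4i1 reaches 1.54 in library 4 by the naive panel and 0.631 by the formative panel.

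The sum of members was close to level between cells rich and poor in mitochondrial transcripts. Between the top and bottom parts ranked by the mitochondrially encoded genes, with those genes left out of the total, the sum of members had ratios of 0.985, 1.01, 1.02 and 0.970. The median panel count was 339 against 196 UMIs in library 1 and 250 against 100 UMIs in library 4. Cox6b2 was 1.12, 1.24, 1.13 and 1.10 times as high in the part rich in mitochondrial transcripts. By the G2/M panel the sum of members was slightly lower in the top part in every library, at 0.956, 0.965, 0.978 and 0.969. The median depth of the top G2/M part was 22099 to 25704 UMIs and that of the bottom part 15653 to 19113 UMIs, and the part of depth was not tested.

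Related lists held smaller shares of genes apart than the table as a whole, except the mitochondrially encoded and glycolytic genes. At least 1.5-fold apart were 9 of 35 further assembly factors (25.7%), 2 of 8 transcription regulators of the pathway (25.0%), 2 of 6 carriers and further subunits (33.3%) and 10 of 78 mitochondrial ribosomal protein genes (12.8%). The share was 29 of 88 for cytosolic ribosomal proteins, 9 of 13 for mitochondrially encoded genes and 16 of 20 for glycolysis. The share of all genes was 47.6%, or 41.0% with at least 200 counts in every library. Some of these lists hold few genes, and the differences from all genes were not tested.

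Named by fold, the assembly factors that differed most were Lyrm7, Surf1 and Cox17. Surf1, needed for the assembly of complex IV, stood at 27.2, 13.9, 33.4 and 19.0 CPM (2.41-fold). Cox17, a copper chaperone, stood at 132, 212, 175 and 271 CPM (2.05-fold), and Lyrm7 at 2.28, 1.03, 2.15 and 0.93 CPM (2.46-fold). Among the regulators, Tfam, the packaging factor of mitochondrial DNA, stood at 72.1, 113, 76.6 and 120 CPM (1.66-fold), and the coactivators Ppargc1b at 9.31, 5.88, 8.30 and 6.61 CPM and Pprc1 at 53.6, 72.5, 51.0 and 58.9 CPM. Among the carriers, Slc25a4, an ADP/ATP exchanger, stood at 337, 215, 509 and 246 CPM (2.37-fold), Dmac2l at 14.5, 8.48, 14.0 and 7.88 CPM (1.84-fold) and Cycs, cytochrome c, at 137, 194, 171 and 195 CPM (1.43-fold).

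The glycolysis genes were level in sum, at 10564, 10123, 9847 and 10459 CPM, and unequal in parts. Slc16a3, a lactate exporter, stood at 28.0, 56.4, 34.3 and 90.5 CPM (3.23-fold) and Slc2a1, a glucose transporter, at 90.1, 179, 139 and 267 CPM (2.97-fold). Ldhb, the lactate dehydrogenase form known from respiring tissues, had the opposite order, at 519, 257, 267 and 162 CPM (3.20-fold).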

How the data were processed

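Single-cell transcriptomes of 4 mESC samples were read as 1 matrix of raw UMI counts. The authors deposited these counts after Cell Ranger 6.1.2 (mm10) and an aggregation step that equalises read depth between libraries. Barcodes carry a library number that no label ties to a sample, so no test of Srrm2 hKO against WT was made and no library was averaged with another. The stated filter of the study was applied per library: UMIs and detected genes at or above the mean minus 1 SD and a mitochondrial share of at most 10%. This filter kept slightly more cells than the paper reports. Doublets were not called, and cells over 2 times the median were left out as an alternative.

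Counts were summed per library and given as CPM with exact 95% Poisson intervals, ratios and shares with exact (Clopper-Pearson) intervals. These cover counting error only. The floor of 3 counts equals 0.0150 to 0.0180 CPM. The count minimum was 200 and the fold limit 1.5, or 0.32 on the log2 scale between the top and bottom of 4 equal parts of the cells. Coding lengths and coordinates came from GENCODE M21 (GRCm38), matched by Ensembl identifier. Genes named were Cox6b2 and Cox6b1, the 10 largest and 5 smallest folds, the highest mean level of each complex, tissue paralogs, Atp5g genes and the 3 largest folds of each further list, with others chosen after their values were seen, such as the remaining subunits named in each complex. Members and lists were chosen with earlier results of these data known, and scripts were checked on simulated data. Python 3.11.15, numpy 2.4.6, scipy 1.17.1 and Biopython 1.88 were used. The heatmap leaves out 1 member, which is not reported here.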

Additional observations from a re-analysis of the deposited data

How the results depend on the processing

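No paired analysis was possible because the library numbers are not tied to labelled samples, and the planned edgeR test and its alternatives were not run for the same reason. Of 58 alternatives, 36 kept the value within its counting interval, its range over libraries or 1.5 times the count and 22 moved it. The sum of members differed 1.024-fold between libraries in the main setting, 1.084-fold with median-of-ratios size factors and 1.062-fold over totals without ribosomal and mitochondrial genes. Under both of these, library 1 became the highest and library 2 the lowest. The sum differed 1.021-fold without cells over 2 times the median, 1.027-fold as a mean over cells and, as an alternative chosen after seeing the data, 1.009-fold without the 6 members whose 3′ words were over 50% shared. Leaving out each library in turn gave 1.015-fold to 1.024-fold for the sum, 17 to 34 members at least 1.5-fold apart, 1.808-fold to 2.438-fold for Cox6b2 and 1.931-fold to 2.815-fold for its ratio to Cox6b1. The count of 35 members fell to 23 without library 1 and to 17 without library 4, beside 35.1% and 38.2% of all genes. With limits of 0.32 on the log2 scale and of 2-fold it was 66 and 10, beside 75.8% and 24.1% of all genes. Cox6b2 differed 2.67-fold with size factors, 2.588-fold without ribosomal and mitochondrial genes, 2.606-fold against chromosome medians and 2.751-fold against genes of like coding length, an alternative chosen after seeing the data. Over UMIs without ribosomal and mitochondrial genes, the median library ratio of the sum was 1.06 between the top and bottom parts by the naive panel and 0.931 by the formative panel, against 1.016 and 0.9648 over all UMIs. With 2 equal parts by the G2/M panel it was 0.9804, against 0.9669. The shared 3′ sequence was over 50% for Cox7c, Atp5g2, Atp5l, Ndufs3, Ndufs5 and Atp5h, whose levels are uncertain. Depth limits only Cox4i2 and Cox7b2, with 41 and 201 counts in their lowest library.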
